A study of Mus musculus with 5 samples.

Results

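The 10 genes described here are regulators and targets of the hypoxia-inducible factors (HIFs) in the atrioventricular canal (AVC) of the mouse embryo. They are Hif1a, Epas1, Egln1, Egln3, Ndrg1, Ankrd37, Adm, Vegfa, Bnip3 and Bhlhe40, and they were picked by symbol from a table of 14697 transcripts. All 10 were found, each as 1 transcript, and all had at least 1 nFPKM in either genotype. Levels are in nFPKM, a unit per transcript length that the authors made from FPKM by a further normalization. The genes were chosen with their difference between the genotypes already known, so that difference is given here as a description and not as a test.

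The AVC lies between the atria and the ventricles of the heart and holds the endocardial cushions, from which the valves form. RNA was sequenced from AVCs of C57BL/6 embryos at embryonic day 12.5. The control group, labelled WT, had the genotype Sox9fl/fl:+/+, and the mutant group, labelled Sox9 cKO, had the genotype Sox9fl/fl:Tie2-Cre/+. Both groups carried floxed Sox9 alleles, and they differed in the presence of Cre as well as in the deletion. Tie2-Cre acts in blood lineages and in endothelium with its progeny, to which a large part of the cushion mesenchyme belongs, so Sox9 is not deleted in every cell of the dissected tissue. Embryos' AVCs were pooled within a genotype, 2 libraries were made from each, and the authors' table merges them into 1 value per genotype. No spread between replicates can be had from it, so no test or p-value is given, and the read depth behind each value is unknown.

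HIFs are pairs of an oxygen-regulated alpha subunit and the stable partner ARNT. In oxygenated cells prolyl hydroxylases of the EGLN family modify the alpha subunit, and the VHL protein then marks it for destruction. When oxygen is low, the alpha subunit escapes this, enters the nucleus and binds short DNA elements with the core ACGTG or GCGTG beside genes for glycolysis, vessel growth and mitochondrial clearance. The control acts on the protein, so the level of Hif1a mRNA does not report the activity of its product. Parts of the embryonic heart are known to be low in oxygen during normal development.

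Sox9, the targeted gene, stood at 36.7 nFPKM in WT and 14.7 nFPKM in cKO. The median log2 ratio of cKO to WT over the 13793 transcripts that reached 1 nFPKM in WT or cKO was -0.11, computed with a pseudocount of 1. Ratios are given relative to that median from here on ("relative log2 ratio"). The middle 90% of them ran from -0.45 to 0.49. In cKO 115 of these transcripts met a rule of 2-fold or more in the higher direction and 93 (0.674%) in the lower. Without the centring these numbers were 82 and 135. The labels name the tissue and no cell type, and cell type markers were taken from lists drawn up for this description. The 17 cardiomyocyte markers summed to 54829 nFPKM in WT and 55202 nFPKM in cKO, the 18 endothelial markers to 1258 and 1445, and the 14 cushion mesenchyme markers to 4135 and 2682. No listed marker had a value of 0.

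All 10 HIF genes were above the all-transcript median in cKO, by very different amounts. Hif1a and Egln1 were close to it, Epas1 was 1.61-fold above it, and the other 7 were from 1.97-fold to 4.89-fold above it. The 2-fold rule was met by 6 of 10 in the higher direction, namely Bhlhe40, Ndrg1, Ankrd37, Adm, Egln3 and Vegfa, against 0.834% of all transcripts. At 1.5-fold it was met by 8 of 10, against 3.44% of all transcripts. Since the genes were chosen on this contrast, these shares are not evidence about the pathway. Without the centring only Bhlhe40, Ndrg1 and Ankrd37 met the 2-fold rule, against 0.595% of all transcripts. Epas1 fell just under the 1.5-fold rule, a log2 ratio of 0.585, without the centring (0.577) and with a pseudocount of 5 (0.584). The values come from whole tissue, so more cells of a type and more RNA per cell cannot be told apart.

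**Figure D1:**
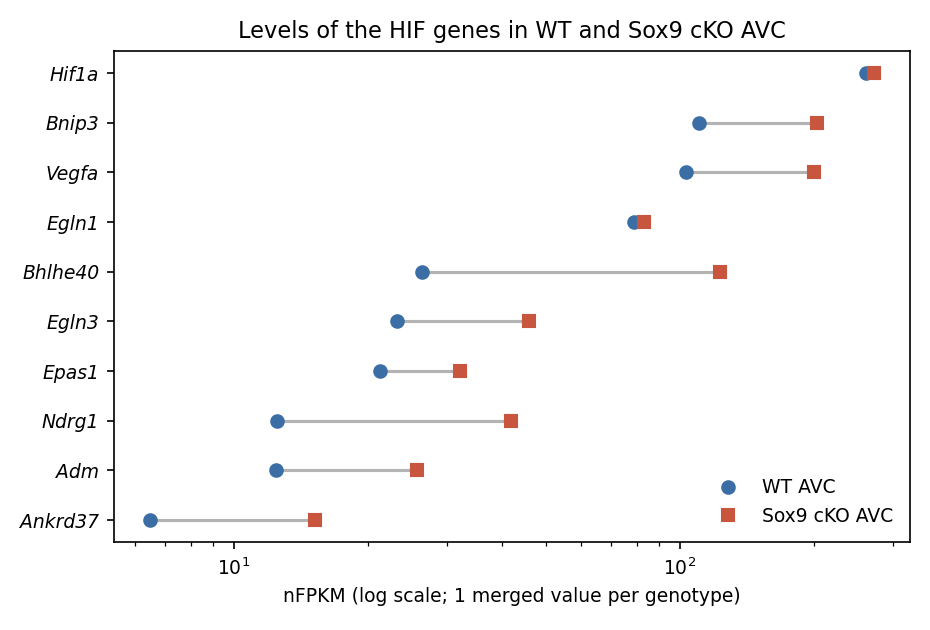
Level of each of the 10 HIF genes in nFPKM (horizontal log axis) in WT (circles) and Sox9 cKO (squares) AVC, with 1 merged value per genotype and no error bar. Hif1a and Egln1 have nearly overlapping symbols, while Bhlhe40 moves from 26.4 to 123 nFPKM and Ndrg1 from 12.5 to 41.9 nFPKM.

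The alpha subunits differed from each other in level and in ratio. Hif1a (NM_010431), which encodes the widely expressed alpha subunit, stood at 262 nFPKM in WT and 272 nFPKM in cKO. It was the most abundant of the 10 genes in both genotypes, and its relative log2 ratio of 0.16 was exceeded by 24.3% of all transcripts. Epas1 (NM_010137), which encodes the HIF-2 alpha subunit known from endothelial cells, stood at 21.2 nFPKM in WT and 32.1 nFPKM in cKO. Its relative log2 ratio was 0.68, exceeded by 1.15% of the 5579 transcripts within 2-fold of its mean level. Hif1a was 12.3 times as abundant as Epas1 in the WT pool and 8.46 times in the cKO pool, a comparison within each pool that no scaling between the pools can change. Among endothelial markers, 15 of 18 were above the all-transcript median, with a median relative log2 ratio of 0.18. Those farthest from it were Emcn (0.82), Plvap (0.70), Cldn5 (-0.59) and Icam2 (0.55). Of the 18 markers only Emcn and Plvap had a higher relative log2 ratio than Epas1. The level of Epas1 relative to Pecam1 was 0.16 in WT and 0.20 in cKO, and relative to Cdh5 it was 0.15 and 0.18. Relative to Emcn, the endothelial marker with the highest ratio, the level of Epas1 was 0.28 in WT and 0.25 in cKO. What part endothelial content has in the Epas1 value was not tested.

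The other subunits showed smaller differences. Arnt, the common partner, stood at 44.0 nFPKM in WT and 44.7 nFPKM in cKO, a relative log2 ratio of 0.13, and its relative Arnt2 at 11.4 and 9.16 nFPKM (-0.19). Hif3a, an alpha subunit whose shorter forms can restrain the others, stood at 61.0 nFPKM in WT and 69.9 nFPKM in cKO (0.30). The ratio of Hif1a to Arnt was 5.95 in WT and 6.09 in cKO. None of these genes reached the 1.5-fold rule.

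The oxygen-sensing hydroxylases went separate ways. Egln1 (NM_053207), which encodes PHD2, the main prolyl hydroxylase of HIF in most tissues, stood at 79.1 nFPKM in WT and 82.9 nFPKM in cKO. Its relative log2 ratio was 0.17, with 22.8% of all transcripts above it. Egln3 (NM_028133), which encodes PHD3 and is itself a known hypoxia-inducible target, stood at 23.2 nFPKM in WT and 45.9 nFPKM in cKO. Its relative log2 ratio was 1.06, exceeded by 0.339% of the 5607 transcripts within 2-fold of its mean level, and it was 0.95 without the centring and 0.93 with a pseudocount of 5, under the 2-fold rule in each case. Egln2, which encodes PHD1, was on the lower side, at 52.6 nFPKM in WT and 32.7 nFPKM in cKO (-0.56). Within the WT pool Egln2 was 2.27 times as abundant as Egln3, and within the cKO pool it was 0.71 times as abundant, so the order of these genes differed between the pools. Egln1 was 3.40 times as abundant as Egln3 in WT and 1.81 times in cKO.

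Hif1an, which encodes the asparagine hydroxylase that blocks the coactivator contact of HIF, stood at 49.2 nFPKM in WT and 42.4 nFPKM in cKO, a relative log2 ratio of -0.11. Vhl stood at 39.8 nFPKM in WT and 29.0 nFPKM in cKO (-0.34). The list of 23 further genes for HIF subunits, hydroxylation, degradation and coactivators held 14 above and 9 below the all-transcript median. None of the 23 met the 1.5-fold rule in either direction, which is near the 3.44% of all transcripts in the higher and 2.82% in the lower direction for a list of this size. Their median relative log2 ratio was 0.06, and it was -0.05 without the centring, so its sign depends on the scaling. Without the centring Egln2, at a log2 ratio of -0.67, met the 1.5-fold rule in the lower direction. Besides Egln2 and Vhl, the genes farthest from the median were Siah2 (0.37), a ubiquitin ligase that acts on the EGLN proteins, and Cited4 (0.36), a binding partner of the coactivators CBP and p300.

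**Figure D2:**
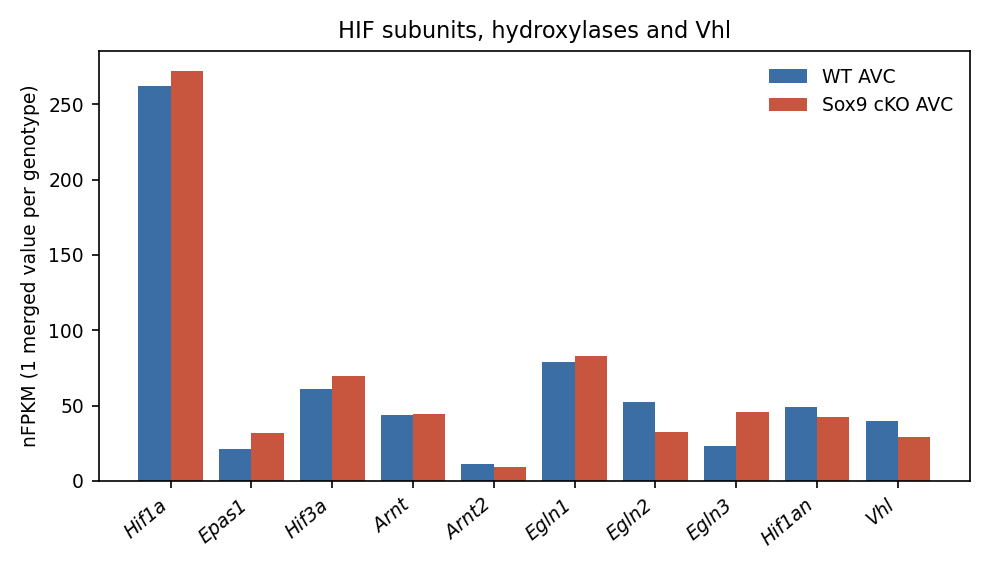
Levels in nFPKM (vertical axis, from 0) of HIF subunits, HIF hydroxylases and Vhl in WT and Sox9 cKO AVC, 1 merged value per genotype and no error bar. Hif1a stands at 262 and 272 nFPKM, Egln2 is lower in cKO (52.6 and 32.7) and Egln3 higher (23.2 and 45.9).

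Among the targets, both genes for secreted factors were about 2-fold higher in cKO. Adm (NM_009627), which encodes the vessel-dilating peptide adrenomedullin, stood at 12.4 nFPKM in WT and 25.8 nFPKM in cKO, a relative log2 ratio of 1.10. Vegfa (NM_001110266), which encodes the main growth factor of blood vessels, stood at 103 nFPKM in WT and 199.7 nFPKM in cKO, a relative log2 ratio of 1.05. Vegfa already lay above 88.6% of transcripts in WT, and in cKO it lay above 95.3% of them. Of the 1833 transcripts within 2-fold of its mean level, 11 had a higher ratio. Without the centring the log2 ratios were 0.99 for Adm and 0.95 for Vegfa, just under the 2-fold rule, and with a pseudocount of 5 the value for Adm was 0.90.

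Bnip3 (NM_009760), which encodes a mitochondrial outer membrane protein that recruits the autophagy machinery, stood at 110 nFPKM in WT and 203 nFPKM in cKO. Its relative log2 ratio of 0.98 was just under the 2-fold rule, and 0.904% of the 1769 transcripts within 2-fold of its mean level had a higher one. Bnip3 and Vegfa had nearly equal levels in each genotype. In nFPKM, Bnip3 gained 92.6, Vegfa 96.7 and Bhlhe40 96.9 from WT to cKO, although Bhlhe40 started from a much lower level.

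The largest ratios belonged to Bhlhe40 and Ndrg1. Bhlhe40 (NM_011498), which encodes a basic helix-loop-helix repressor also known as DEC1, stood at 26.4 nFPKM in WT and 123 nFPKM in cKO. Its relative log2 ratio was 2.29, and 10 of the 13793 transcripts had a higher one. Ndrg1 (NM_008681), which encodes a cytoplasmic protein induced by several kinds of stress, stood at 12.5 nFPKM in WT and 41.9 nFPKM in cKO, a relative log2 ratio of 1.77 that 17 transcripts exceeded. Both met the 2-fold rule under all settings tried, with a lowest value of 2.11 for Bhlhe40. Ankrd37 (NM_001039562), which encodes a small ankyrin repeat protein and is a known target of HIF-1, was the least abundant of the 10 genes in both genotypes. It stood at 6.48 nFPKM in WT and 15.2 nFPKM in cKO, a relative log2 ratio of 1.22. With a pseudocount of 5 this was 0.90, under the 2-fold rule, since a larger pseudocount draws in the ratio of a gene at this level.

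The order of levels was alike in both pools apart from exchanged neighbours. In WT the order from the highest was Hif1a, Bnip3, Vegfa, Egln1, Bhlhe40, Egln3, Epas1, Ndrg1, Adm and Ankrd37. In cKO Bhlhe40 stood above Egln1, and Ndrg1 above Epas1, with the other places as in WT. Several neighbours differed by little in WT, such as Ndrg1 and Adm, whose levels had a ratio of 1.01, and Bnip3 and Vegfa, with a ratio of 1.07. Without a spread between replicates it cannot be said which of these steps exceed the error. The levels of the 10 genes spanned a factor of 40.4 in WT and 17.9 in cKO.

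**Figure D3:**
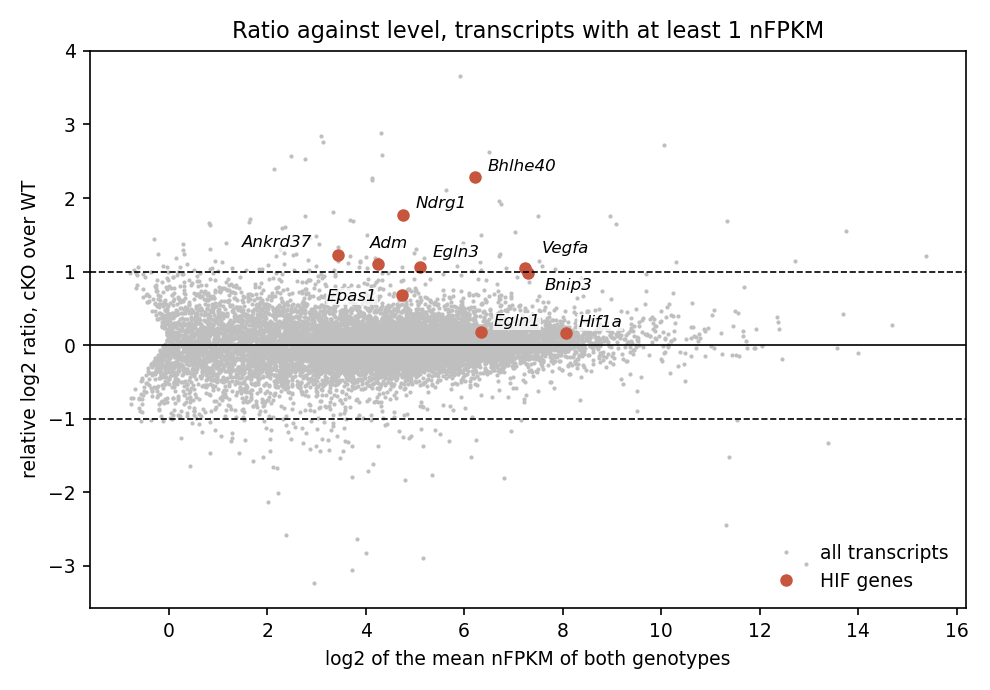
Relative log2 ratio of cKO to WT (vertical axis) against the log2 mean nFPKM of both genotypes (horizontal axis) for 13793 transcripts (small grey points), with the 10 HIF genes as large labelled points and dashed lines at 2-fold. Hif1a (0.16) and Egln1 (0.17) lie within the cloud of transcripts at their level, and the genes from Bnip3 (0.98) to Bhlhe40 (2.29) lie above it.

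Promoter sequences are shown for the core of the HIF binding element. Genes chosen as HIF targets are known in part through such elements, so the matches are a description and are not independent of the choice. The 250 bases before the RefSeq transcript start (build GRCm38.p6) were searched on both strands for ACGTG and GCGTG, which read CACGT and CACGC on the other strand. Promoters were found for 7 of the 10 genes, Adm, Ankrd37, Bnip3, Egln1, Egln3, Hif1a and Vegfa, the last with 2 starts. No promoter was matched for Epas1, Ndrg1 and Bhlhe40. The sequences below are shown for Ankrd37, Bnip3 and Egln3, which were about 2-fold or more higher in cKO, and for Egln1 and Hif1a, which were close to the all-transcript median. Each is given 5′ to 3′ on the strand of the gene and ends at the base before the start, and capitals mark the matches.
Ankrd37 (chr8:45999851-46000100, minus strand): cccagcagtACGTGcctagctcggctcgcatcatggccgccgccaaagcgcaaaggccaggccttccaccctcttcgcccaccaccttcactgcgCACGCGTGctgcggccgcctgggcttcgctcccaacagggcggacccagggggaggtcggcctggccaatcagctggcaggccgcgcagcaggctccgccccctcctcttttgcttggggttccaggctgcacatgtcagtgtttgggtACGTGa
Bnip3 (chr7:138909507-138909756, minus strand): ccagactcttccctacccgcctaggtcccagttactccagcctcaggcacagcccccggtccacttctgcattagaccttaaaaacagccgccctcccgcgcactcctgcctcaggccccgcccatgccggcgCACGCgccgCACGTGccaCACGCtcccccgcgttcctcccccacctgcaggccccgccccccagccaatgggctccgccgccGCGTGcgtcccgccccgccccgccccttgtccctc
Egln3 (chr12:54203875-54204124, minus strand): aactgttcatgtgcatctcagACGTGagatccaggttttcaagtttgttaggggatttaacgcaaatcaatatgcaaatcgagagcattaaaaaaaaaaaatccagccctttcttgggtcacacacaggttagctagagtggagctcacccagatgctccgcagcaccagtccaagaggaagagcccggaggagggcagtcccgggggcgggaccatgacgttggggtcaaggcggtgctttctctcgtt
Egln1 (chr8:124949255-124949504, minus strand): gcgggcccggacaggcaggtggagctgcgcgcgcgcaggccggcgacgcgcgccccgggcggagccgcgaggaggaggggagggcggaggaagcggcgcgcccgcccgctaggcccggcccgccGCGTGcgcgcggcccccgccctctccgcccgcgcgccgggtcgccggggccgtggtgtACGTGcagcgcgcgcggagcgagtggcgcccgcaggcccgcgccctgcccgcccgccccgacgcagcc
Hif1a (chr12:73907617-73907866, plus strand): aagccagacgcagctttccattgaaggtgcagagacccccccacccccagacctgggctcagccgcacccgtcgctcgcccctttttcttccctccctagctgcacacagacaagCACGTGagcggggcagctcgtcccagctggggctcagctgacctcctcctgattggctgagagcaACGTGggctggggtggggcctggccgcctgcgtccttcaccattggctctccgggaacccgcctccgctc

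Matches were found both in genes with high ratios and in genes near the all-transcript median. Of the 8 promoters of these genes, 7 held at least 1 match, against 38.6% of all 32851 promoters. ACGTG was found in 6 of the 8, against 16.6% of promoters, and GCGTG in 5 of the 8, against 28.2%. Ankrd37 held ACGTG at 6 and 241 bases before the start and an overlapping pair of matches to GCGTG in the run of capitals at 155 bases. Bnip3 held 5 matches from 117 to 35 bases before the start, of which CACGT and ACGTG overlap as a palindrome. Egln3 held 1 match, at 229 bases. Adm held CACGC at 90 and 54 bases and no ACGTG, and Vegfa held none before the first of its starts and 2 matches before the start further along the gene. The bases before that further start lie inside the gene and not upstream of it. They are nevertheless counted among the 7, the 6 and the 5 promoters given above, and the upstream Vegfa promoter is in none of these counts. Hif1a, with a relative log2 ratio of 0.16, held ACGTG at 134 and 70 bases, the first as part of a palindrome. Egln1, with a ratio of 0.17, held GCGTG at 126 and ACGTG at 68 bases. Such matches also come with base composition, and the promoters of Egln1 (86.0% G or C) and Bnip3 (72.4%) were richer in G and C than the median promoter (52.4%). In the 100 bases before the start, 5 of the 8 promoters held a match, against 21.9% of promoters. A match is a run of letters and not a shown binding site.

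Other hypoxia-inducible genes were described with a list of 63 genes, of which 62 were in the table and 61 had at least 1 nFPKM in either genotype. Of these, 53 were above and 8 below the all-transcript median, and their median relative log2 ratio was 0.46. The 2-fold rule was met by 9 of the 61 in the higher direction (14.8%, against 0.834% of all transcripts) and by none in the lower direction. Without the centring 6 of the 61 met the 2-fold rule, against 0.595%. The 1.5-fold rule was met by 18 in the higher direction, against 3.44% of all transcripts, and by Angptl4 (-0.66) in the lower, near the 2.82% of all transcripts. The list was drawn up with the higher values of many hypoxia genes known, so its direction is not independent evidence. Among the farthest from the median were the stanniocalcins Stc2 (6.21 nFPKM in WT and 20.7 nFPKM in cKO, 1.69) and Stc1 (9.93 and 22.3 nFPKM, 1.20), and the glucose transporter Slc2a3 (36.1 and 89.1 nFPKM, 1.39). Angptl4, Ldha, Pdk1 and Car9 were singled out with their values in view. Ldha, the lactate dehydrogenase gene, had levels of 1171 nFPKM in WT and 1436 nFPKM in cKO (0.40). Pdk1, which restrains the entry of pyruvate into mitochondria, had levels of 135 and 150.3 nFPKM (0.26). Car9, a carbonic anhydrase often used as a marker of hypoxia, was low in both pools, at 3.38 and 3.91 nFPKM (0.27).

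**Figure D4:**
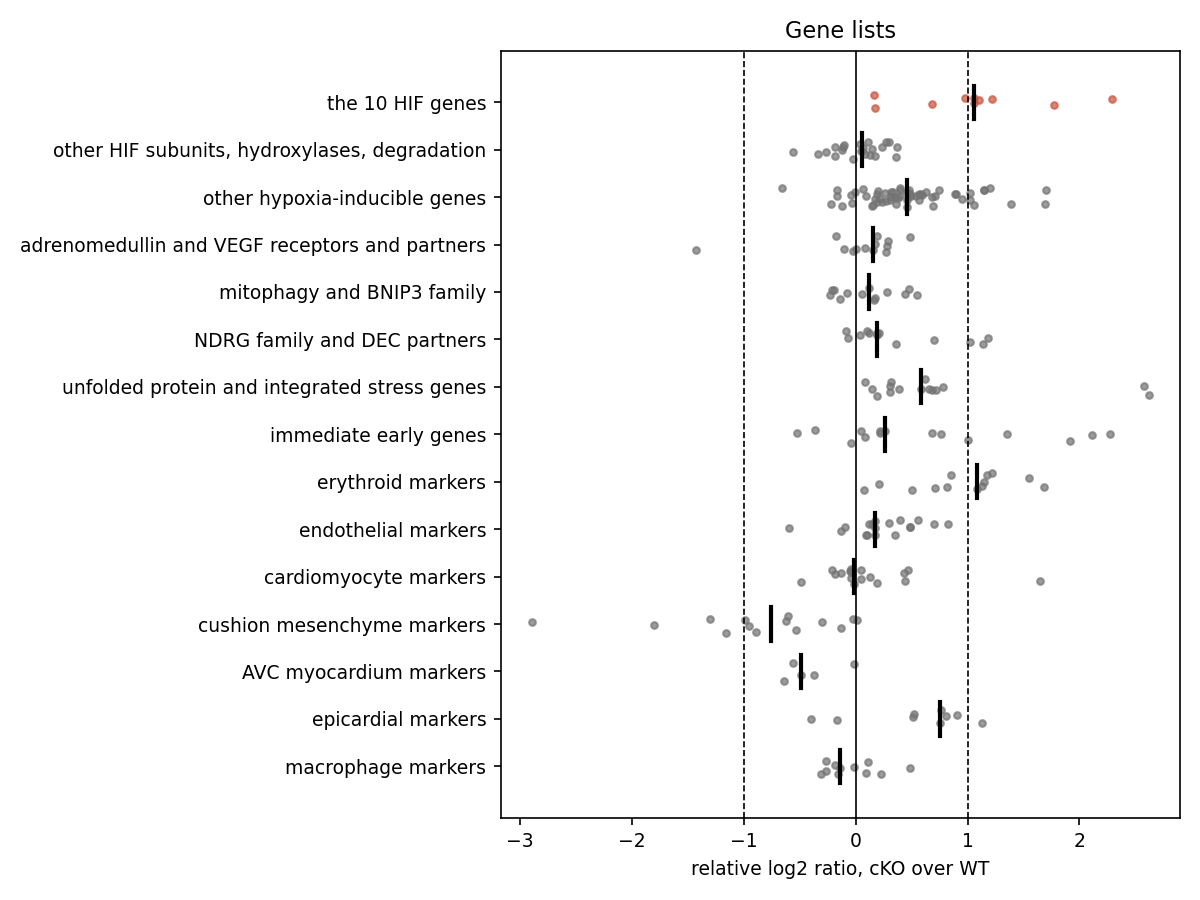
Relative log2 ratio of cKO to WT (horizontal axis) for each gene of 15 lists (rows), with a black bar at each list's median and dashed lines at 2-fold. The 10 HIF genes have a median of 1.06, the other hypoxia-inducible genes 0.46 and the other HIF subunits, hydroxylases and degradation genes 0.06.

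The receptors of the secreted factors were closer to the all-transcript median than Adm and Vegfa. Calcrl, the adrenomedullin receptor, stood at 79.5 nFPKM in WT and 78.4 nFPKM in cKO (0.09). Its partners had relative log2 ratios of -0.18 for Ramp1 and 0.19 for Ramp3, and Ramp2 stood at 188 nFPKM in WT and 174 nFPKM in cKO. Kdr, the main signalling receptor of VEGF, stood at 80.9 nFPKM and 85.0 nFPKM (0.18), and Flt1, which binds VEGF and limits its action, at 29.4 and 38.6 nFPKM (0.49). Flt4 (0.28), Nrp1 (0.27) and Nrp2 (0.28) lay between them. The level of Vegfa relative to Kdr was 1.27 in WT and 2.35 in cKO, and that of Adm relative to Calcrl was 0.16 and 0.33. Of the other VEGF family ligands, Vegfb (0.15), Vegfc (-0.11) and Pgf (-0.02) were near the median, while Figf, the VEGF-D gene, was 2-fold lower or more, at 14.8 nFPKM in WT and 4.46 nFPKM in cKO (-1.43). Of these 13 receptors and ligands, 8 were above the median, none met the 1.5-fold rule in the higher direction, against 3.44% of all transcripts, and Figf alone met it in the lower, against 2.82% of all transcripts.

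Relatives and partners of the other targets varied. Of 13 genes of the BNIP3 family and of mitophagy, 8 were above the median and none met the 1.5-fold rule in either direction, which for so short a list is near the 3.44% and 2.82% of all transcripts. The farthest were Gabarapl1 (0.55), which BNIP3-type receptors can bind on the autophagosome, the relative Bnip3l (79.9 and 103 nFPKM, 0.47), Bcl2 (0.44) and Park2 (0.28). Bnip3 was 1.38 times as abundant as Bnip3l in WT and 1.96 times in cKO. The list of the NDRG family and of clock genes that DEC proteins act on held 13 genes, 11 of them above the median. Per1 (11.4 and 25.2 nFPKM, 1.19), Nr1d1 (9.38 and 20.2 nFPKM, 1.14) and Bhlhe41 (4.71 and 9.77 nFPKM, 1.02), the DEC2 gene, met the 2-fold rule, against 0.834% of all transcripts, and Dbp stood at 0.70. Without the centring Bhlhe41 no longer met the rule, leaving 2 genes against 0.595% of all transcripts. Bhlhe41 is also among the 9 other hypoxia-inducible genes counted above at 2-fold, so it is not a separate observation here. The relatives Ndrg2, Ndrg3 and Ndrg4, singled out with their values in view, had relative log2 ratios of -0.07, 0.19 and -0.09.

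Some stress-responsive genes also had higher values in cKO. Several of the 10 genes, Vegfa and Ndrg1 among them, are known to respond to other stresses than low oxygen. All 15 genes of the unfolded protein and integrated stress responses were above the median, with a median relative log2 ratio of 0.58 and a summed level of 2152 nFPKM in WT and 2743 nFPKM in cKO. Ddit3 (2.62) and Derl3 (2.58) met the 2-fold rule, against 0.834% of all transcripts, and Chac1 (0.78) and Ppp1r15a (0.72) followed. Chac1 stood at 0.25 nFPKM in WT and 1.00 nFPKM in cKO, so it passed the filter only through cKO. Derl3 was low in WT, at 1.03 nFPKM against 10.2 nFPKM in cKO. The median of this list was 0.49 with at least 3 nFPKM required in either genotype, and 0.36 with a pseudocount of 5. Of 15 immediate early genes with at least 1 nFPKM, 12 were above the median and 5 met the 2-fold rule, against 0.834% of all transcripts. Without the centring 4 met it, against 0.595%. Egr2, singled out with its values in view, also passed the filter only through cKO, at 0.99 nFPKM in WT and 1.97 nFPKM in cKO. The list's median was 0.26, and Jun (-0.53), Jund (-0.37) and Ier2 (-0.05), singled out with their values in view, were below the all-transcript median. The summed level of all 16 listed was 427 nFPKM in WT and 623 nFPKM in cKO, and Fos (2.27), Egr1 (2.11), Ier3 (1.91) and Nr4a1 (1.36) were the farthest. Their part in the values of the HIF genes was not tested.

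Cell type markers also differed in level between the pools, and numbers of cells cannot be read from these levels. All 13 erythroid markers in the table were above the median (median 1.08), and their summed level was 41125 nFPKM in WT and 93264 nFPKM in cKO. Hbb-bh1 (1.69), Hba-x (1.55) and Hbb-y (1.21) were the farthest, and near-identical globin copies can share reads. Of 9 epicardial markers 7 were above the all-transcript median and the list's own median was 0.75, with a summed level of 305 nFPKM in WT and 389 nFPKM in cKO and with Krt19 (1.13), Lrrn4 (0.90), Upk1b (0.80) and Wt1 (0.76) the farthest. Cushion mesenchyme markers went the other way, with 13 of 14 below the median, a median of -0.76 and the lowest values at Papss2 (-2.90), Lum (-1.80), Twist1 (-1.30) and Sox9 (-1.16). Sox9 is the targeted gene, so this list is not independent of the genotype. The 5 markers of AVC myocardium were all below it (median -0.49), and Bmp2 (-0.64), Tbx3 (-0.56), Tbx2 (-0.49) and Hcn4 (-0.37) were the farthest. The 5 markers summed to 163 nFPKM in WT and 115 nFPKM in cKO. The 17 cardiomyocyte markers had a median of -0.01, with Nppb (1.65), Myh6 (-0.49), Ttn (0.47) and Nppa (0.44) the farthest. The 11 macrophage markers that passed had a median of -0.14 and, over the 12 in the table, a summed level of 190.4 nFPKM in WT and 162 nFPKM in cKO. Cd68 (0.48), Ptprc (-0.31), Lyz2 (-0.27) and Tyrobp (-0.26) were the farthest among them. Relative log2 ratios of the Y-linked Kdm5d, Eif2s3y, Uty and Ddx3y ran from 2.53 to 2.89, and that of Xist was -1.17. The part of cell makeup and of sex-linked differences between the pools in the values of the 10 genes was not tested.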

How the data were processed

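RNA-seq of WT and Sox9 cKO AVCs was described from 1 deposited table. Per the file headers, its 2 value columns hold normalized FPKM (nFPKM), merged over the duplicate libraries; how the authors normalized them is not stated in the sources at hand. A further column is the authors' deposited log2 fold change, without a p-value. Tools named in the submitters' processing notes are edgeR, Cufflinks and TopHat2, and the build is mm9, with no versions or roles. FPKM values that merge libraries allow no counts to be recovered, so depth is unknown, and no interval was computed.

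A pseudocount of 1, which shrinks the ratio of low genes, was added to each value before the log2 of cKO over WT was taken. Transcripts under 1 nFPKM in both genotypes, 904 in number, were left out. The ratio was centred on its median. With 1 value per genotype the only call was by size, at 2-fold and 1.5-fold. Steps were tested on simulated data. The 10 genes, the gene lists and the rules were chosen with earlier results of these data known. Some genes are in more than 1 list, so the lists are not separate observations. The list of other hypoxia-inducible genes shares 3 genes with the endothelial markers and 2 with the adrenomedullin and VEGF list. It shares 1 gene each with the mitophagy, the NDRG and clock, and the immediate early lists. Besides the 10 genes and Sox9, the text names HIF subunits, HIF hydroxylases, Vhl, the receptors of VEGF and adrenomedullin with their partners, and up to 4 genes per list with the largest absolute ratio. A few genes that this rule names are not reported here. For some other genes the text says that they were singled out with their values in view. Pecam1, Cdh5, Xist, Vegfb, Vegfc and Pgf are also named outside this rule, without such a remark. RefSeq promoters came from GRCm38.p6. SOX9 peaks, in mm9, were not used here because no mm9 annotation was at hand. Python 3.11.15, numpy 2.4.6, pandas 2.3.3 and matplotlib 3.10.9 were used.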

Additional observations from a re-analysis of the deposited data

How the results depend on the processing

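No paired analysis was possible because each genotype has 1 merged value, and for the same reason no replicate could be left out. The 10 genes were above 0 in all 80 combinations of gene and alternative (8 alternatives: other pseudocounts, filters, scalings, the authors' deposited log2 fold change, and transcripts summed by gene). Of these, 74 kept their side of the 2-fold rule and 6 fell under it. The number of the 10 genes at least 2-fold higher, 6, was 3 with a pseudocount of 5 and 3 without the centring. Over all transcripts, 115 higher and 93 lower became 235 and 261 with a pseudocount of 0.1, and 45 and 36 with a pseudocount of 5. In the authors' deposited log2 fold change 145 were higher and 165 lower, a split that leans to the lower side, and rescaling to the sum without globin genes gave 108 and 121. Other hypoxia-inducible genes at least 1.5-fold higher numbered 14 to 20 under all alternatives, against 18. The log2 ratios, with and without the centring, ran from 0.05 to 0.17 for Hif1a, from 0.577 to 0.710 for Epas1 and from 0.87 to 0.99 for Bnip3. The lowest value for Epas1 lay just under the 1.5-fold rule. Merged values without replicates limit every comparison here to a description.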
